A study of Mus musculus with 11 samples.

Results

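The Cyp3a genes are a family of cytochrome P450 genes, and the arrays of developing mouse liver carry 6 of them, Cyp3a11, Cyp3a13, Cyp3a16, Cyp3a25, Cyp3a41 and Cyp3a44. Members were taken by name, as every gene of the array design whose name starts with Cyp3a and a digit, and they are read by 8 probes of 41174 probes and make up 6 of the 27962 gene names on the array. The rule uses names alone, though it was set with earlier results of these data known. All 6 genes and all 8 probes passed the filter on dim probes, and each of the 8 probes was well above background in the liver channel on all 11 arrays. Mouse liver was collected at 4 ages, embryonic days 14 and 18 (E14 and E18) and post-natal days 5 and 56 (P5 and P56), with 3, 3, 2 and 3 biological replicates per the labels, and the P5 arrays are replicates 2 and 3. Liver RNA was labeled with Cy5 and hybridised against commercial RNA of normal adult mouse liver labeled with Cy3, the same reference on each array and in the same dye orientation. The labels give total RNA of liver as the source of every array and no treatment or sex, while also naming hepatoblasts at E14, immature hepatocytes at E18 and hepatocytes after birth. The methods give C57BL/6 mice for the fetal livers from which cells were purified through E-cadherin, an epithelial surface protein, and whether an embryonic array holds whole liver or such isolated cells is not settled by these sources.

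Cyp3a enzymes sit in the membrane of the endoplasmic reticulum of hepatocytes, where they oxidise steroids, bile acids and many drugs with electrons from the NADPH reductase Por. Their transcription is controlled by the nuclear receptors PXR (Nr1i2) and CAR (Nr1i3), which bind DNA together with a retinoid X receptor, and by liver-enriched factors such as Hnf4a and the C/EBP proteins. In mouse liver, Cyp3a11 is the main adult form, Cyp3a16 is known as a form of late fetal and newborn liver, Cyp3a41 and Cyp3a44 are known to be higher in females, and Cyp3a13 is also made in the intestine. The genes arose by duplication and are similar in sequence, so that a probe may also bind the transcript of a relative.

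The probes are 60 bases long and lie on chromosome 5, on the strand that runs against the numbering, in coordinates of build mm7 as the array files give them. Cyp3a13 lies apart from the rest, with its probe at chr5:136812092-136812151. The probe of Cyp3a16 lies at chr5:144465045-144465104 and those of Cyp3a25 at chr5:144867457-144867516 and chr5:144876319-144879536. The probe of Cyp3a41 and both probes of Cyp3a44 lie within 383 bases of each other, at chr5:144587472-144587854, although they are filed under 2 gene names. The Cyp3a11 probe covers 1868 bases of the genome and so spans an intron, and the array files list 3 RefSeq transcripts for it, those of Cyp3a11, Cyp3a41 and Cyp3a44, so its signal cannot be assigned to Cyp3a11 alone. RefSeq of assembly GRCm38.p6 holds 9 protein-coding Cyp3a genes and 4 pseudogenes, and it names the gene of the Cyp3a41 probe Cyp3a41a. Among the 28 pairs of probes the longest run of identical bases was 4 to 8, so no probe repeats the bases of another. This does not show whether 2 probes read the same transcript, which was not checked. The probes shown are that of Cyp3a11, whose target 3 genes share, both probes of Cyp3a44, which disagreed at P56 (the second only in its first 30 bases), and the dimmer probe of Cyp3a25, which spans an intron.
Cyp3a11, probe A_51_P355301: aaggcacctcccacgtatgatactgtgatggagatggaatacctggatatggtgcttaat
Cyp3a44, probe A_52_P571006: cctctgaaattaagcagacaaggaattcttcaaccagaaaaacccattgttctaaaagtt
Cyp3a44, probe A_52_P366803: cactgagctttctcagtgtctgtgcaagtt
Cyp3a25, probe A_52_P380314: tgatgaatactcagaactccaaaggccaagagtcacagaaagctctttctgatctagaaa

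RefSeq promoters were found for all 6 genes, as 250 bases before and 50 bases after the start of transcription on GRCm38.p6, all on the minus strand of chromosome 5. Over the 250 bases before the start, the promoters of Cyp3a11, Cyp3a16, Cyp3a41 and Cyp3a44 were 71.7% to 94.4% identical in their 6 pairs, with identical runs of 21 to 80 bases. The 9 pairs with Cyp3a13 or Cyp3a25 were 47.5% to 56.2% identical, with identical runs of 7 to 12 bases. The 100 bases before each start are shown to let the groups be compared, with the letters ATATAA in capitals where they occur, the core of a TATA box.
Cyp3a11, chr5:145879855-145879954: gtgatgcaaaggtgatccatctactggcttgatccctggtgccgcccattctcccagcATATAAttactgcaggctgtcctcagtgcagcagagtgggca
Cyp3a16, chr5:145469724-145469823: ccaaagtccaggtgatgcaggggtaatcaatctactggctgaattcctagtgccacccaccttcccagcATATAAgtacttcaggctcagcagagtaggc
Cyp3a41, chr5:145720137-145720236: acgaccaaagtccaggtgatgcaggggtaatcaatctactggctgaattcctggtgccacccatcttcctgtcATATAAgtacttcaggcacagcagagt
Cyp3a44, chr5:145805875-145805974: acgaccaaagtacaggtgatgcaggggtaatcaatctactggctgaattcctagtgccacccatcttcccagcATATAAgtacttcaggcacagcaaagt
Cyp3a13, chr5:137921620-137921719: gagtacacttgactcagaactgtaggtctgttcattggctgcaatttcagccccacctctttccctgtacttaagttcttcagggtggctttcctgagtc
Cyp3a25, chr5:146009619-146009718: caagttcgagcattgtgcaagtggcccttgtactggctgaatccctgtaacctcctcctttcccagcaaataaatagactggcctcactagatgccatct

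ATATAA lay 27 bases before the start in Cyp3a41 and Cyp3a44, 31 before it in Cyp3a16 and 42 before it in Cyp3a11, and in neither Cyp3a13 nor Cyp3a25 within these 100 bases. Searched on both strands of the 300-base windows, ATATAA was in 5 of the 6 genes, in Cyp3a25 outside the bases shown, beside 9.82% of all 32851 promoters. The nuclear receptor half-site AGTTCA was in the windows of Cyp3a11 and Cyp3a41, beside 14.0% of promoters, and AGGTCA in those of Cyp3a11, Cyp3a25 and Cyp3a44, beside 16.3%. These matches describe letters only, since binding was not measured.

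The arrays held 16790 to 25718 spots well above background in Cy5 of 43379 that are not controls, with the fewest on P56 replicate 2, and their number limits the precision. Replicates correlated across genes at r = 0.83 to 0.99, with the lowest values among the adult livers. By scan times there were 4 scans, of which the first held all E14 arrays and E18 replicate 1, the second the remaining E18 arrays, the third P5 replicate 2 alone, and the fourth P5 replicate 3 and the adult livers. Scan and stage are therefore separable in part only for E18 against E14 and for P56 against P5. The labelled cell types were checked against their markers. Of 5 hepatoblast markers, 3 rose and none fell from E14 to E18 (median 0.68), with Igf2 at 0.94 and Afp at 0.61, which was not called, so this list was not lower in the livers labelled immature hepatocytes than in those labelled hepatoblasts. All 5 fell from P5 to P56, where Afp and Igf2, the brightest, fell by 5.45 and 3.85. Alb1 (albumin) and Fgb (fibrinogen), the brightest of 7 hepatocyte markers, rose from E14 to E18 with all 7, the list's mean log2 ratio going from -2.91 to -2.65 at E14 to 0.58 to 0.77 at E18. In the P5 livers that mean was -0.024 and -0.0061, and in the adult livers it was -1.09 to -0.56. Markers of erythroid cells, of which Hbb-b1 and Hba-a1 (globins) were the brightest, were high through P5, with a mean log2 ratio of their 12 genes of 3.49 to 3.64 at E14, 3.18 to 3.47 at E18, 2.41 and 3.01 in the P5 livers, and -0.15 to 0.11 in the adult livers. Since these are bulk samples, fewer cells of a type and less RNA per cell cannot be told apart.

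Levels are given as log2 ratios to the adult reference, where 0 means as much signal as in the reference and -1 a level 2-fold lower, and they can be compared between stages of a gene but not between genes. Cyp3a11, the main drug-metabolising form, stood at -3.99, -4.13 and -4.24 in the 3 E14 livers, -2.83, -2.65 and -2.58 at E18, -1.65 and -2.08 at P5, and -0.55, -0.06 and 0.47 at P56. Its stages did not overlap, and each was above the one before. Cyp3a16 stood at -6.07, -6.27 and -6.46 at E14, -2.91, -3.17 and -2.96 at E18, -1.50 and -1.84 at P5, and -0.83, 0.13 and 0.50 at P56. Its stages did not overlap either. Although Cyp3a16 is known as a form of late fetal and newborn liver, its probe read higher in adult than in newborn liver. Whether the transcript of a relative adds to this adult signal was not tested. Cyp3a41 had the widest span, at -6.99 and -7.30 in E14 replicates 1 and 2, -4.02, -4.38 and -3.94 at E18, -2.08 and -2.47 at P5, and -0.82, 0.18 and 0.62 at P56. It rose from each age to the next without overlap. The spot of Cyp3a41 on E14 replicate 3 was marked as an outlier and left out of its fit, and its reference channel was saturated on 4 of the 11 arrays, E14 replicate 2, E18 replicates 1 and 3 and P5 replicate 2, where the reference can read too low and the ratio too high. Fold changes and ranks of Cyp3a41 are therefore approximate in every comparison. Cyp3a44, by the brighter of its probes, stood at -4.67, -4.88 and -4.83 at E14, -3.38, -3.16 and -2.91 at E18, -1.76 and -2.08 at P5, and -0.82, -0.12 and 0.36 at P56. In these 4 genes P56 replicate 1 was the lowest of the 3 adult livers and replicate 3 the highest.

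Cyp3a13 and Cyp3a25 took another course, with a plateau from P5. Cyp3a13 stood at -4.20, -4.48 and -4.24 at E14, -1.05, -1.11 and -1.10 at E18, -0.48 and -0.11 at P5, and -0.09, -1.0 and -0.36 at P56. Cyp3a25, by the brighter of its probes, stood at -5.72, -5.92 and -5.90 at E14, -4.03, -4.29 and -3.70 at E18, -1.49 and -1.22 at P5, and -1.35, -2.04 and -1.25 at P56. In both genes the P5 and P56 arrays overlapped and the fetal stages lay below them, and P56 replicate 2 was the lowest adult liver. All 3 adult livers were below the reference for Cyp3a25, with a mean of -1.55 ± 0.43 (SD, n = 3) by the brighter probe and -0.49 ± 0.21 by the dimmer. They were also below it for Cyp3a13, with a mean of -0.49 ± 0.46 (SD, n = 3). Cyp3a11, Cyp3a16, Cyp3a41 and Cyp3a44 averaged -0.05 ± 0.51, -0.06 ± 0.69, -0.0084 ± 0.74 and -0.19 ± 0.60 (SD, n = 3 each).

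**Figure D1:**
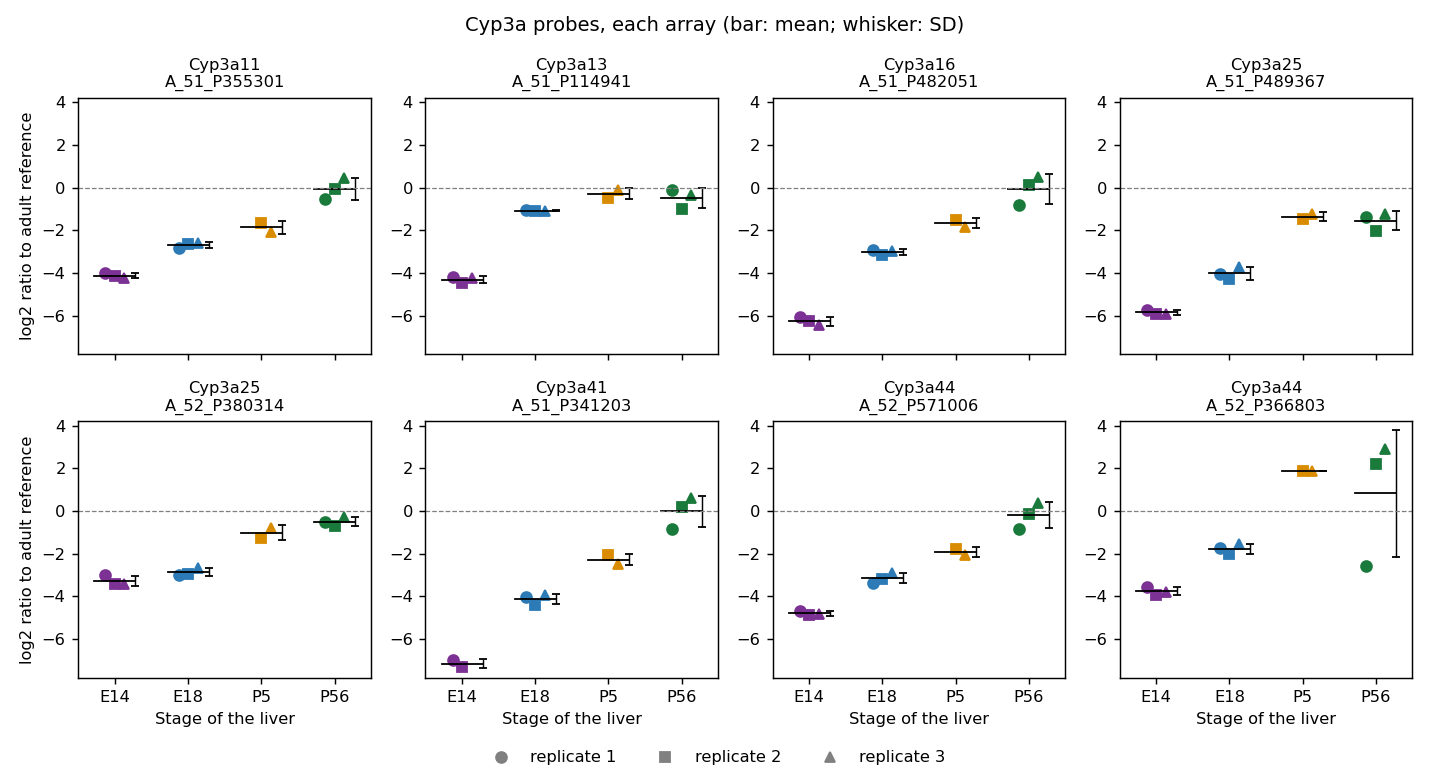
Log2 ratio to the adult reference (y axis) of each of the 8 Cyp3a probes at E14, E18, P5 and P56 (x axis), where each point is an array, bars are stage means and whiskers the SD, and the dashed line is the level of the reference. The probes of Cyp3a11, Cyp3a16 and Cyp3a41 and the first of Cyp3a44 step up at each age, the probe of Cyp3a13 and the first of Cyp3a25 level off from P5, and the second Cyp3a44 probe splits the P56 livers, with replicate 1 at -2.58.

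Between E14 and E18, when the fetal liver is still a blood-forming organ, all 6 Cyp3a genes rose, beside 24.5% of the 16695 genes tested (4096 called higher at an adjusted p under 0.05 in limma). Cyp3a16 rose 9.53-fold (log2 fold change 3.25 ± 0.26 SE, adjusted p = 1.33e-06), Cyp3a13 9.34-fold (3.22 ± 0.19, adjusted p = 1.00e-07) and Cyp3a41 8.19-fold (3.03 ± 0.33, adjusted p = 2.76e-05). The other 3 rose less, Cyp3a25 by 3.58-fold (1.84 ± 0.20, adjusted p = 1.60e-05), Cyp3a44 by 3.12-fold (1.64 ± 0.24, adjusted p = 0.000147) and Cyp3a11 by 2.70-fold (1.43 ± 0.21, adjusted p = 0.000164). Cyp3a16 ranked 106 and Cyp3a13 ranked 112 from the top of all genes, and Cyp3a11 ranked 890. Within the scan that held both stages, the single E18 liver exceeded the mean of the 3 E14 livers by 3.36 on the log2 scale for Cyp3a16, 3.26 for Cyp3a13, 3.13 for Cyp3a41, 1.81 for Cyp3a25, 1.41 for Cyp3a44 and 1.29 for Cyp3a11. The hepatocyte markers rose in the same comparison, 7 of 7 with a median log2 fold change of 3.35, beside a median of -0.01 over all genes. Their part in the rise of the Cyp3a genes was not tested. When log ratios were also scaled to the same spread on each array, Cyp3a13 was the only 1 of the 6 called.

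From E18 to P5 the 6 genes rose again, beside 7.31% of all genes, 1221 in number. Cyp3a25 led with a 6.29-fold rise (2.65 ± 0.23 SE, adjusted p = 2.92e-05) and ranked 11 of all genes tested. Cyp3a41 rose 3.59-fold (1.84 ± 0.33, adjusted p = 0.00530), Cyp3a16 2.54-fold (1.35 ± 0.29, adjusted p = 0.0116) and Cyp3a44 2.34-fold (1.23 ± 0.27, adjusted p = 0.0109). The rises of Cyp3a11, 1.77-fold (0.82 ± 0.24, adjusted p = 0.0384), and of Cyp3a13, 1.73-fold (0.79 ± 0.21, adjusted p = 0.0315), lay near the threshold. None of the 7 hepatocyte markers rose in this comparison and 3 fell, with a list median of -0.44. No scan holds both stages, so scan and age cannot be told apart by within-scan values. Xist, an RNA of females given below, was high in both P5 livers but at E18 in replicate 1 only. The part of sex in these rises was not tested. Leaving out any of the E14, E18 or P5 arrays ended the call of Cyp3a11, whose log2 fold change was then 0.61 to 1.04. The call of Cyp3a13 ended without E18 replicate 1 (0.81), E18 replicate 2 (0.78), E18 replicate 3 (0.78) or P5 replicate 3 (0.61). With log ratios scaled to the same spread on each array, none of the 6 was called and Cyp3a11, Cyp3a16, Cyp3a41 and Cyp3a44 turned negative, at -1.33, -0.65, -0.84 and -0.99.

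From P5 to P56 the genes parted. Cyp3a41 rose 4.80-fold (2.26 ± 0.33 SE, adjusted p = 0.000284), Cyp3a11 3.52-fold (1.82 ± 0.24, adjusted p = 7.80e-05), Cyp3a44 3.32-fold (1.73 ± 0.27, adjusted p = 0.000274) and Cyp3a16 3.04-fold (1.60 ± 0.29, adjusted p = 0.000952). Cyp3a13 and Cyp3a25 were not called, with log2 fold changes of -0.19 (95% interval -0.66 to 0.28, adjusted p = 0.495) and -0.19 (-0.69 to 0.30, adjusted p = 0.509). The 4 genes called higher stand beside 21.0% of all genes called higher, and 24.7% were called lower. This split of the 6 genes holds for the brighter probes only. The 4 that rose are not independent readings, since the Cyp3a11 probe also lists the transcripts of Cyp3a41 and Cyp3a44. They are also the genes with alike promoters, whose part was not tested, and the promoters of Cyp3a13 and Cyp3a25 are unlike each other as well. The dimmer Cyp3a25 probe was called higher (0.52) and the dimmer Cyp3a44 probe was at -1.05 and not called, and the mean of both Cyp3a44 probes (0.34) and the authors' table (0.16) did not call Cyp3a44. In the same comparison 11 of the 12 erythroid markers fell (median -2.72), and of the 7 hepatocyte markers 1 rose and 4 fell (median -1.01), and their part in the changes of the Cyp3a genes was not tested. Within the fourth scan, the mean of the P56 livers exceeded P5 replicate 3 by 2.46 for Cyp3a41, 2.03 for Cyp3a11, 1.89 for Cyp3a44 and 1.77 for Cyp3a16, and was -0.37 for Cyp3a13 and -0.33 for Cyp3a25. With scan as a block Cyp3a16 kept its size (1.77) but not its call. Without P56 replicate 2 the values of Cyp3a13 and Cyp3a25 turned to 0.065 and 0.053. Median centring in place of loess moved the median of all genes to -0.47 and the split of calls from 3504 higher and 4118 lower to 654 and 8855, and called Cyp3a13 lower at -0.91, or -0.44 relative to that median.

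**Figure D2:**
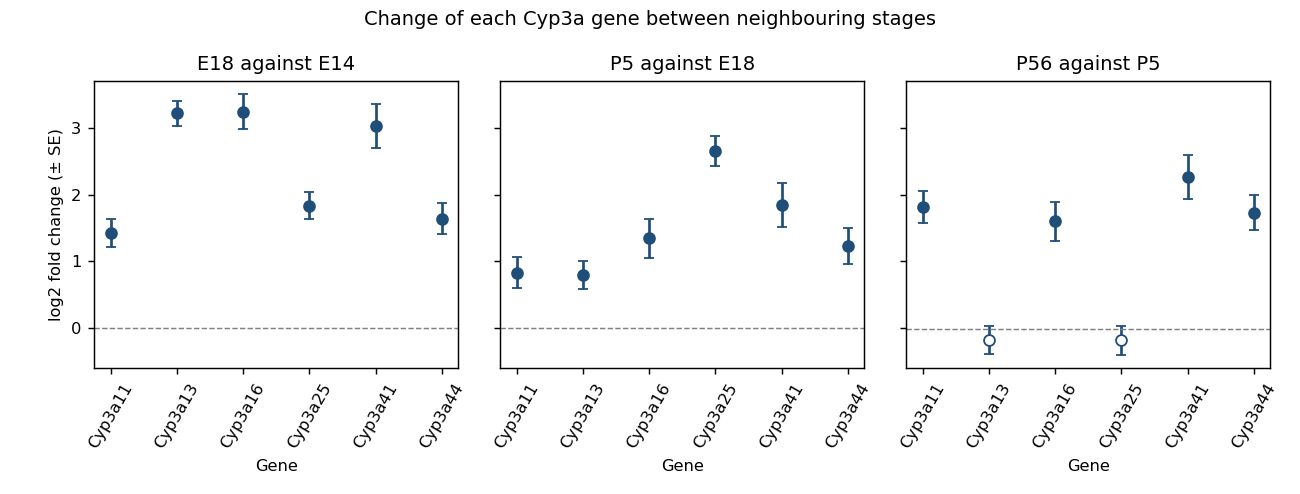
Log2 fold change with its SE (y axis) of each of the 6 Cyp3a genes (x axis) from E14 to E18, from E18 to P5 and from P5 to P56. Filled points have an adjusted p under 0.05 and open points do not, and the dashed line is the median of all 16695 genes. Cyp3a13 has its largest step between E14 and E18, Cyp3a25 its largest step between E18 and P5, and the other 4 rise in every panel.

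Over the whole course, from E14 to P56, all 6 genes rose, beside 36.2% of all genes. The rise was 141.0-fold for Cyp3a41 (7.14 ± 0.33 SE, adjusted p = 1.05e-08), 73.5-fold for Cyp3a16 (6.20 ± 0.26, adjusted p = 1.91e-09), 24.3-fold for Cyp3a44 (4.60 ± 0.24, adjusted p = 8.77e-09), 19.7-fold for Cyp3a25 (4.30 ± 0.20, adjusted p = 3.83e-09), 16.8-fold for Cyp3a11 (4.07 ± 0.21, adjusted p = 8.70e-09) and 14.1-fold for Cyp3a13 (3.82 ± 0.19, adjusted p = 7.06e-09). Cyp3a41 ranked 11 of all genes and Cyp3a16 ranked 28, and the value of Cyp3a41 is approximate, since without the spots saturated in the reference it could not be fitted. From E18 to P56 all 6 were also called higher, beside 31.3% of all genes, with log2 fold changes of 4.10 ± 0.30 for Cyp3a41, 2.96 ± 0.24 for Cyp3a44, 2.95 ± 0.26 for Cyp3a16, 2.64 ± 0.21 for Cyp3a11, 2.46 ± 0.20 for Cyp3a25 and 0.60 ± 0.19 (SE) for Cyp3a13. The small rise of Cyp3a13 (adjusted p = 0.0165) was no longer called without P56 replicate 1 (0.40) or P56 replicate 3 (0.54), and median centring left it at 0.042, or 0.47 relative to the median of all genes of -0.43. These comparisons share arrays with those between neighbouring ages. Xist, given below, was high in P56 replicates 2 and 3 but before birth only in E14 replicate 2 and E18 replicate 1. The part of sex in these rises was not tested.

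The changes from E18 to P56 were set against each other within arrays in all 15 pairs of genes. Cyp3a13 changed less than each of the other 5, with a difference of -1.86 to Cyp3a25 and of -3.51 to Cyp3a41 on the log2 scale. By its approximate values, Cyp3a41 changed more than each of the others, and the nearest was Cyp3a44, with a difference of 1.15. In 10 of the 15 pairs the 3 E18 and the 3 P56 arrays did not overlap in the pair's difference. The share of such pairs over all genes was not computed, so the count is a description only. In the same comparison 64.8% of single genes were called, which is another measure. The pairs with Cyp3a41 make up 5 of these 10 and rest on its saturated reference spots, without which 5 pairs were left. The exact two-sided permutation test allows no p below 0.1 with 3 arrays against 3, and after adjustment over the 15 pairs no value was below 0.15, so no pair passed. Cyp3a16 and Cyp3a44 differed by -0.0097 (exact p = 1), with an SD of the difference of 0.13 at P56 and 0.29 at E18 (n = 3 each).

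Cyp3a25 and Cyp3a44 each have a second, dimmer probe. The second Cyp3a25 probe, whose sequence is shown above, stood at -3.01, -3.40 and -3.43 at E14, -3.0, -2.96 and -2.65 at E18, -1.25 and -0.77 at P5, and -0.50, -0.70 and -0.27 at P56. It moved little before birth (0.41 ± 0.17 SE, adjusted p = 0.0632, not called), rose from E18 to P5 (1.86 ± 0.19, adjusted p = 9.52e-05) like the brighter probe, and was called higher at P56 than at P5 (0.52 ± 0.19, adjusted p = 0.0405), where the brighter probe read -0.19. The 2 probes correlated at r = 0.95 over the 11 arrays. Of the 8 probes, fitted among all 23512 probes tested, 6 were called higher from E14 to E18 (beside 22.3% of probes), 7 from E18 to P5 (6.21%), 5 from P5 to P56 (19.5%), and 8 from E18 to P56 (29.4%) and from E14 to P56 (33.5%).

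The 2 probes of Cyp3a44, which the array files place within the same 383 bases, disagreed at P56. The second probe stood at -3.56, -3.95 and -3.77 at E14, -1.72, -2.01 and -1.55 at E18, 1.89 and 1.87 at P5, and -2.58, 2.19 and 2.90 at P56. Both P5 livers and P56 replicates 2 and 3 were thus above the adult reference, and P56 replicate 1 was below all E18 livers. The first probe showed no such split, with P56 replicate 1 at a difference of -0.94 from the mean of the other 2 adult livers, against -5.13 for the second, the fourth lowest of 23464 probes. With this spread the second probe was called in neither E18 against E14 (2.00 ± 1.01 SE, adjusted p = 0.129), P5 against E18 (3.64 ± 1.13, adjusted p = 0.0565) nor P56 against P5 (-1.05 ± 1.13, adjusted p = 0.486). It was called in P56 against E14 (4.60 ± 1.01, adjusted p = 0.00149). In P56 against E18 it was also called (2.59 ± 1.01, adjusted p = 0.0406), although the arrays of these stages overlapped. Averaging both probes took the P56 against P5 change of Cyp3a44 to 0.34, no longer called. The Cy5 signal of the second probe at E14 was only 49.9, 51.2 and 52.3 before background correction, near the offset of 50.

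Sex-linked transcripts also separated P56 replicate 1 from the other adult livers, and since the labels give no sex they are set beside the probe with no grouping and no test. Xist, the RNA that silences the second X chromosome of females, stood at -0.06 in P56 replicate 1 and at 4.04 and 5.18 in replicates 2 and 3. The Y-linked Eif2s3y stood at 1.53 in P56 replicate 1 and at -1.20 and -2.02 in replicates 2 and 3. Xist was also high in both P5 livers, at 4.13 and 2.67, where the second Cyp3a44 probe was high. In the fetal livers it was high in E14 replicate 2 (3.19) and E18 replicate 1 (4.45) and at -0.02 to 0.14 in the other 4, while the second Cyp3a44 probe was at -3.95 and -1.72 in those livers, neither of them the highest of its stage. In P56 replicate 1 the probes of Cyp3a41, Cyp3a16 and Cyp3a11 also read lower than the mean of the other 2, with differences of -1.22, -1.14 and -0.75, whereas Cyp3a13 and the brighter Cyp3a25 probe read higher by 0.59 and 0.29. The part of sex in these differences was not tested. High Xist was also unevenly spread over the ages, in both P5 livers and P56 replicates 2 and 3 but only in E14 replicate 2 and E18 replicate 1 before birth. By Xist, sex and age can therefore not be fully told apart in the rises given above. This includes those of Cyp3a41 and Cyp3a44, known to be higher in females.

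**Figure D3:**
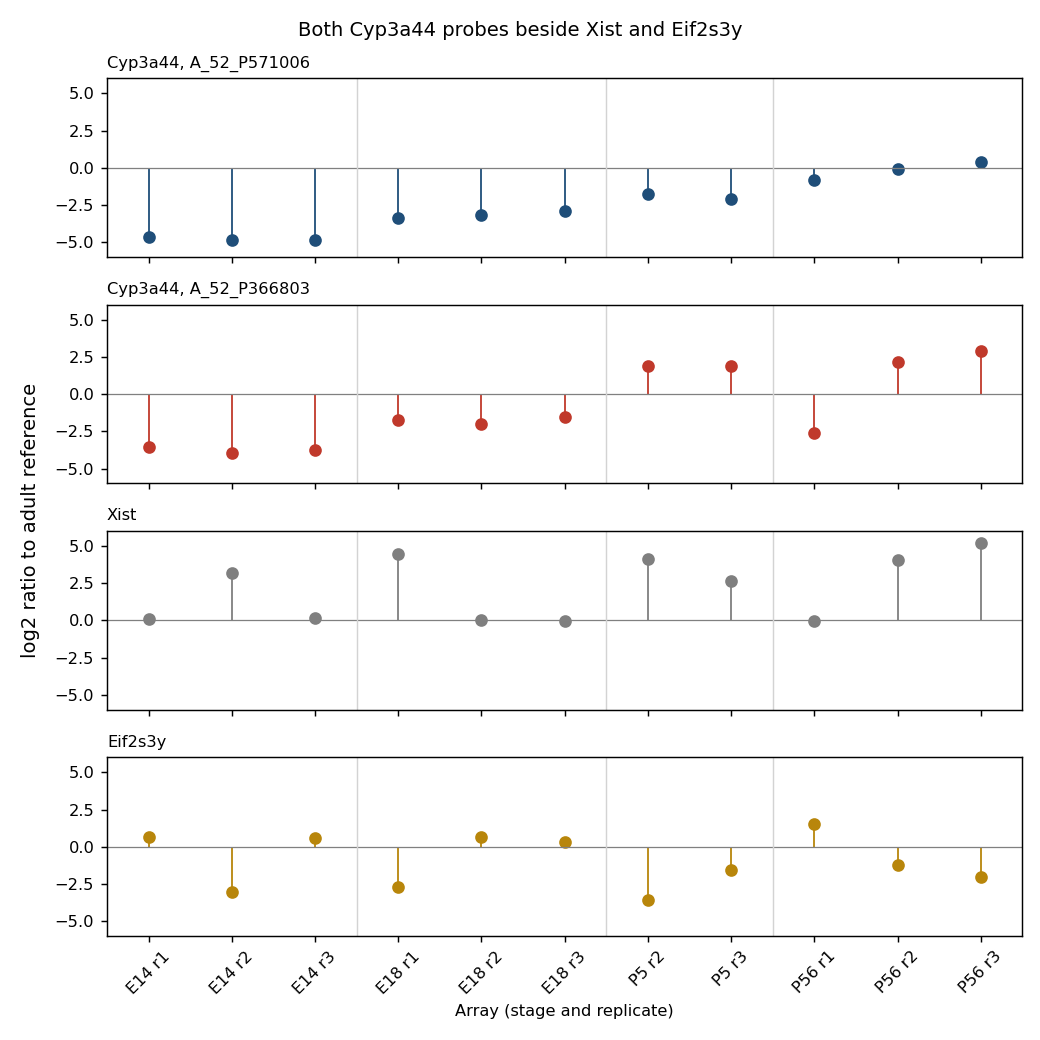
Log2 ratio to the adult reference (y axis) on each of the 11 arrays (x axis, stage and replicate, grey lines between stages) for both Cyp3a44 probes, for Xist and for the Y-linked Eif2s3y. The second Cyp3a44 probe and Xist are both high in the P5 livers and in P56 replicates 2 and 3 and low in P56 replicate 1, but fetal livers with high Xist do not stand apart on the Cyp3a44 probe.

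Transcripts of the factors that control Cyp3a genes rose mainly before birth. Of 28 regulators, 22 rose and 1 fell from E14 to E18, 5 rose and none fell from E18 to P5, and 7 rose and 4 fell from P5 to P56, with medians of 1.20, 0.09 and 0.04 on the log2 scale beside -0.01, 0.00029 and -0.02 over all genes. Over all genes 24.5%, 7.31% and 21.0% were called higher and 22.9%, 6.39% and 24.7% lower at these steps. From E18 to P56 and from E14 to P56, 31.3% and 36.2% were called higher and 33.5% and 34.7% lower. The 7 of 28 regulators that rose at the last step lay near the share of all genes. The xenobiotic receptor Nr1i2 (PXR) stood at -2.78 and -3.21 at E14, with no value in replicate 3, at -1.72, -1.41 and -1.27 at E18, at -1.10 and -1.02 at P5 and at -0.68, -0.76 and -0.46 at P56. It rose from E14 to E18 (1.53) and then showed changes of 0.40 and 0.43 that were not called. Nr1i3 (CAR) stood at -2.41, -2.56 and -2.67 at E14, at -1.75, -1.61 and -1.46 at E18, at -0.88 and -0.56 at P5 and at -0.58, -0.27 and 0.02 at P56. It rose at both of the first steps, by 0.94 and 0.88, and by 0.45 at the last, with an adjusted p of 0.0499 at the threshold.

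Among the other regulators, the genes with the largest changes differed in part from step to step. From E14 to E18 they were the bile acid receptor Nr1h4 (2.35 ± 0.11 SE), the C/EBP factor Cebpa (2.31 ± 0.15) and the fatty acid receptor Ppara (2.03 ± 0.11), and Hnf4a rose by 1.47. From E18 to P5 they were Nr0b2 (1.07 ± 0.15), a repressor induced by bile acids, the retinoid X receptor Rxrg (1.06 ± 0.21) and the coactivator Ppargc1a (0.97 ± 0.21). From P5 to P56 the growth hormone receptor Ghr rose by 2.02 ± 0.11 and Rxrg by 1.63 ± 0.21, while Ppargc1a fell by 1.70 ± 0.21. Over the wider spans, Rxrg (2.69 ± 0.19), Ghr (2.34 ± 0.10) and the clock output factor Dbp (1.76 ± 0.20) changed most from E18 to P56, where 11 of 28 rose and 4 fell, and Ghr (3.77 ± 0.10), Nr1h4 (3.65 ± 0.11) and Cebpb (3.14 ± 0.11) from E14 to P56, where 25 rose and none fell.

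The redox partners of P450 enzymes and the genes of haem supply, 10 in all, had medians above 0 at each step, at 0.72, 0.32 and 0.41. Over all genes 24.5%, 7.31% and 21.0% were called higher and 22.9%, 6.39% and 24.7% lower at these steps. From E18 to P56 and from E14 to P56, 31.3% and 36.2% were called higher and 33.5% and 34.7% lower. From E14 to E18, 8 rose and 1 fell, led by Por (2.39 ± 0.12 SE), the reductase that feeds electrons to P450s, cytochrome b5 (Cyb5, 1.62 ± 0.13) and the haem-binding Pgrmc1 (1.33 ± 0.12). Por stood at -2.78, -2.90 and -2.87 at E14 and at -0.67, -0.32 and -0.39 at E18, close to its levels of -0.06, -0.38 and -0.03 at P56. From E18 to P5, Pgrmc1 (0.90 ± 0.14), Cyb5 (0.61 ± 0.13) and Cyb5b (0.37 ± 0.11) rose and none fell. From P5 to P56, 5 rose and 2 fell. Among those that rose were Cyb5b (1.97 ± 0.11) and Alas1 (1.71 ± 0.24), the rate-limiting enzyme of haem synthesis in liver. The 2 that fell were Hmox1 (-2.47 ± 0.15), which breaks haem down, and Fech (-1.69 ± 0.13), another enzyme of haem synthesis. Fech was also the 1 gene that fell from E14 to E18 (-0.35 ± 0.11), and it was lower at P56 than at E18 (-1.30) and E14 (-1.65). From E18 to P56, 6 rose and 3 fell, with the largest changes in Pgrmc1 (2.52 ± 0.12), Alas1 (2.36 ± 0.21) and Cyb5b (2.34 ± 0.10). From E14 to P56, 7 rose and 3 fell, with the largest in Pgrmc1 (3.85 ± 0.12), Alas1 (3.58 ± 0.21) and Cyb5 (2.92 ± 0.13). Erythroid cells also use haem enzymes, and 11 of the 12 erythroid markers fell from P5 to P56 beside the falls of Hmox1 and Fech. A link between these falls was not tested.

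Among other genes known to be induced through PXR and CAR, some rose at each step and most at the last. Of the 19 listed, 10 rose from E14 to E18 (median 0.56), 5 rose and 1 fell from E18 to P5 (median 0.39), and 12 rose and none fell from P5 to P56 (median 0.79). Over all genes 24.5%, 7.31% and 21.0% were called higher at these steps, with medians of -0.01, 0.00029 and -0.02. From E18 to P56, 17 of 19 rose (median 1.65), beside 31.3% of all genes, and from E14 to P56, 18 of 19 (median 2.35), beside 36.2%. The mean log2 ratio of the 19 genes was -3.30 to -3.07 at E14, -2.49 to -2.37 at E18, -2.06 and -1.64 at P5 and -1.0 to -0.52 at P56, with no overlap between stages.

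**Figure D4:**
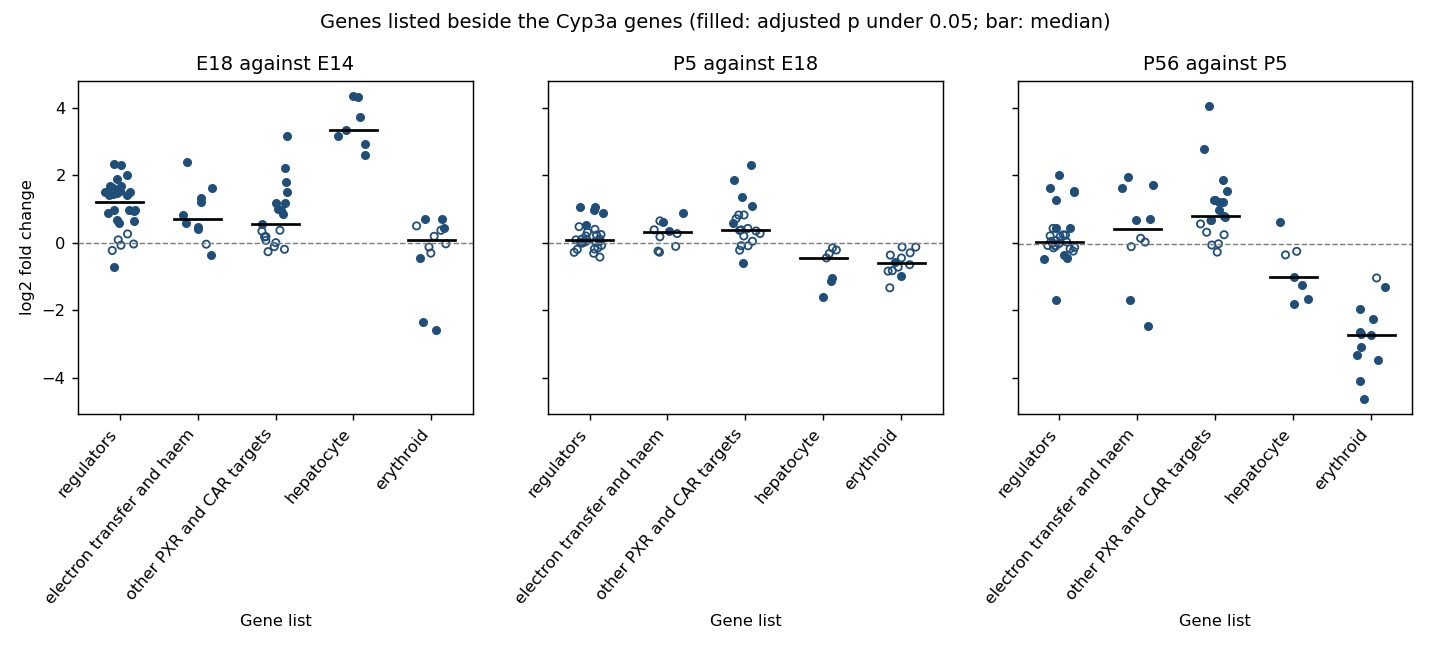
Log2 fold change (y axis) of the genes in 5 lists (x axis) from E14 to E18, from E18 to P5 and from P5 to P56, where each point is a gene, filled at an adjusted p under 0.05, bars are list medians and the dashed line is the median of all genes. Regulators and hepatocyte markers rise mostly in the first panel, with medians of 1.20 and 3.35, and the erythroid markers fall in the last, with a median of -2.72.

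Markers of the other cells that liver can hold moved as follows, beside 24.5%, 7.31% and 21.0% of all genes called higher and 22.9%, 6.39% and 24.7% called lower at the 3 steps. All 9 macrophage markers, of which Marco (1.77) and Emr1 (1.69) were the brightest, rose from E14 to E18 (median 1.21), and 5 of 9 fell from P5 to P56 (median -0.68). Of 6 endothelial markers, 4 rose in the first step, the brightest, Xlkd1 (0.79) and Kdr (0.88), among them, and 6 fell in the last. Of 6 stellate and fibroblast markers tested, Dcn rose in the first step (1.18) and 2 fell, with Col3a1 at -0.51 and not called, and 4 fell in the last, Col3a1 (-1.32) among them. Of 4 biliary markers tested, Sox9 (0.74) and Krt19 (0.41) rose in the first step and Krt19 fell by 0.56 in the last, while Krt7 was at -0.14 and -0.38 and was not called, and Krt19 was named after its values were seen. Of the intestinal markers, which bear on Cyp3a13, 3 were tested, of which Fabp2 and Lgals4 were the brightest, and all 3 rose from E14 to E18 with a median of 0.59. They parted later, since 2 rose and 1 fell from E18 to P5, and 1 rose and 1 fell from P5 to P56. At these 2 steps Fabp2 was at 1.91 and 1.97 and Lgals4 at 0.85 and -0.86. Cdx1 and Cdx2, which define intestinal epithelium, were not above background on all arrays of any stage and so were not tested. Of the 12 erythroid markers, 3 rose and 3 fell from E14 to E18, while all 6 Cyp3a genes rose, and the part of any of these cells in the changes of the Cyp3a genes was not tested.

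The 5 genes outside the family that were most like each member were ranked by Pearson's r over the arrays (11, or 10 for Cyp3a41) among 16427 genes, as a description of arrays that share a strong age pattern. Cyp3a11 was most like Crem (0.996), Nr1h3 (0.994), Akr1c20 (0.991), Alas1 (0.991) and Hspb8 (0.989). Cyp3a44 shared Crem (0.994), Nr1h3 (0.992) and Akr1c20 (0.991) with it and added Akr1c6 (0.989) and Cd1d1 (0.989), and the first Cyp3a44 probe correlated with the Cyp3a11 probe, which lists its transcript too, at 0.997. Crem is a transcription factor of the cAMP response, Nr1h3 an oxysterol receptor and the Akr1c genes encode steroid reductases. Cyp3a41 was most like Cdo1 (0.993), Gstz1 (0.991), Akr1c6 (0.990), Hagh (0.990) and Akr1c20 (0.988), and Cyp3a16 like 2310016A09Rik (0.996), Ecm1 (0.992), Tmem53 (0.992), Cdo1 (0.992) and Perp (0.990). Cyp3a25 was most like 1810022C23Rik (0.995), Cyp2e1 (0.995), a P450 that metabolises ethanol, Cbr4 (0.990), the bile acid enzyme Slc27a5 (0.987) and Tmem63b (0.987). Cyp3a13 was most like Proz (0.999), Asgr2 (0.994), a receptor for desialylated glycoproteins, Hao1 (0.994), Azgp1 (0.994) and Pgcp (0.993).

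Of 67 named genes with a probe within 500 kb of a Cyp3a probe, 48 were tested. From E14 to E18, 33.3% of them rose and 20.8% fell, beside 24.5% and 22.9% of all genes. From E18 to P5, 4.17% rose and 6.25% fell, beside 7.31% and 6.39%, and from P5 to P56, 22.9% rose and 25% fell, beside 21.0% and 24.7%. At the last 2 steps these shares lay near those of all genes. The largest rise from E14 to E18 among them was that of Azgp1, a secreted zinc-binding glycoprotein whose probe lies 95927 bases from that of Cyp3a13. Its log2 fold change was 2.86 (adjusted p = 3.19e-08), with 0.38 and 0.22 at the later steps that were not called, and it is also among the 5 genes most like Cyp3a13 on all arrays. The transferrin receptor Trfr2, 306460 bases from the Cyp3a13 probe, rose by 1.82 and 1.04 and then fell by 1.14. Mcm7, a replication factor 298126 bases from that probe, fell by 3.21 from P5 to P56.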

How the data were processed

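Normal mouse liver of 4 ages was hybridised to 11 Agilent arrays with 2 colours, and arrays were mapped to ages by their labels. The authors deposited, for every spot, the intensity in each channel as written by Feature Extraction 9.5.1.1, beside its local background and quality marks. They were not normalized between arrays. The authors' own deposited table of log2 ratios, with 1 value per gene, served as an alternative only. Its columns correlated with the values used here at r = 0.79 to 0.92, and its column medians were -0.06 to 0.05.

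Mean signals were corrected by normexp (offset 50) and normalized by loess inside each array. Control and outlier spots were left out. A probe was kept if Cy5 was well above background on every array of a stage, and the brightest probe stood for its gene. Of 16695 genes, 263 lacked a value on an array and were fitted without it. Ages were compared in a single limma 3.58.1 model (lmFit and eBayes, R 4.3.3), and p-values were adjusted by Benjamini-Hochberg, with calls at 0.05. Tested on simulated data with 200 changed genes, the model recovered 84% to 92% of those changed by 1 (log2), depending on the comparison.

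The members, gene lists and tests were chosen with earlier results of these data known. Named genes are all Cyp3a genes, regulators and redox or haem genes (in each comparison the 3 with the largest called change, and others of these lists), the 5 genes most like each member, neighbours within 500 kb, and the 2 brightest markers of each cell type. Some barcodes were carried by more than 1 array, so the slide is uncertain. Promoters come from RefSeq (GRCm38.p6) and were aligned with Biopython 1.88. The software's log10 ratios were not used. Alternatives were other background corrections, normalizations, filters and probes, the Cy5 channel alone, the software's processed signals, the authors' table, the replicate number, scan or slide as a block, array weights, the methods' t-test and leaving out each array.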

Additional observations from a re-analysis of the deposited data

How the results depend on the processing

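All values are log2 fold changes unless named otherwise. All 6 rises from E14 to P56 stayed called in the same direction in every alternative that gave a value. The alternative that changed most gave all arrays the same spread of log ratios. Under it, Cyp3a13 was the only gene of 6 called from E14 to E18, with Cyp3a11 at 0.91, Cyp3a16 at 2.29, Cyp3a25 at 1.12, Cyp3a41 at 2.11 and Cyp3a44 at 1.04. From E18 to P5 the count was 0, with Cyp3a11 at -1.33, Cyp3a16 at -0.65, Cyp3a41 at -0.84, Cyp3a44 at -0.99, Cyp3a13 at 0.56 and Cyp3a25 at 1.07 (the lowest adjusted p was 0.312). From P5 to P56 Cyp3a25 was at 0.45. From E18 to P56 the count was 3, with Cyp3a11 at 2.22, Cyp3a13 at 0.27 and Cyp3a25 at 1.52 no longer called. The cause was not tested.

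The calls of Cyp3a11 and Cyp3a13 from E18 to P5 were lost most often. Cyp3a11 was at 0.86 with plain background subtraction, 0.90 with processed signals, 0.82 with no filter, 0.83 with scan as a random block, 0.78 with array weights and 0.75 with the slide as a block. Cyp3a13 was at 0.83, 0.84 and 0.79 with plain subtraction, processed signals and scan as a random block, 0.96 with median centring and 0.81 with the slide as a block. Requiring a log2 fold change of 1 removed both at their values of 0.82 and 0.79, and Cyp3a13 from E18 to P56 at 0.60. Leaving out single arrays gave 0.61 to 1.04 for Cyp3a11 and 0.61 to 0.97 for Cyp3a13.

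With the replicate number as a block, Cyp3a11 was at 0.74 from E18 to P5 (adjusted p = 0.0876) and lost its call. The numbers do not pair the samples, whose deviations correlated at -0.30 to 0.19 in 15 pairs of arrays with the same number, and the block ended no other call of a Cyp3a gene. Scan as a fixed block could be fitted for E18 against E14 and P56 against P5 only. Under it, Cyp3a16 was at 1.77 from P5 to P56 (adjusted p = 0.0788), and with scan as a random block Cyp3a13 was at 0.56 from E18 to P56. Within scan 1, Cyp3a11 was at 1.29 from E14 to E18.

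With median centring, Cyp3a13 was called lower from P5 to P56 at -0.91, which made 1 gene called lower in place of 0, and was at 0.042 from E18 to P56. Median centring moved the calls over all genes to 1580 higher and 8972 lower from E18 to P56 and to 2453 higher from E14 to P56, with medians of -0.43 and -0.33. Plain subtraction and an offset of 10 moved the median from E14 to P56 to 0.12 and 0.14, and the Cyp3a genes were at 4.06 to 7.18 and 4.19 to 7.36 relative to these.

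The mean of a gene's probes put Cyp3a25 at 0.16 and Cyp3a44 at 0.34 from P5 to P56. The dimmer probes, an alternative chosen after seeing the data as was the slide, gave Cyp3a25 0.41 from E14 to E18 and 0.52 from P5 to P56, and Cyp3a44 2.00, 3.64 and -1.05 from E14 to E18, E18 to P5 and P5 to P56. The authors' table gave from E18 to P5 1 call, with Cyp3a11 at 0.85, Cyp3a13 at 0.82, Cyp3a16 at 1.35, Cyp3a41 at 1.88 and Cyp3a44 at 2.60. It gave Cyp3a25 0.24 and Cyp3a44 0.16 from P5 to P56 and Cyp3a13 0.67 from E18 to P56.

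The methods' t-test after adjustment called 0 Cyp3a genes from E18 to P5 (Cyp3a11 0.82, Cyp3a13 0.79, Cyp3a16 1.35, Cyp3a25 2.65, Cyp3a41 1.84, Cyp3a44 1.23) and 0 from P5 to P56 (Cyp3a11 1.82, Cyp3a16 1.60, Cyp3a41 2.26, Cyp3a44 1.73), and not Cyp3a13 from E18 to P56 (0.60). Unadjusted, it missed only Cyp3a16 from P5 to P56 (1.60) and Cyp3a13 from E18 to P56 (0.60) among the called. With saturated spots left out, Cyp3a41 had too few values to be fitted, and the gene pairs without overlap were 5 in place of 10. The pair of Cyp3a16 and Cyp3a44, at -0.0097, was at 0.054 with equal spreads, 0.24 in Cy5 alone and 0.094 in processed signals, and at -0.100 to 0.16 with single arrays left out. Leaving out single arrays gave -0.39 to 0.065 for Cyp3a13 and -0.34 to 0.053 for Cyp3a25 from P5 to P56, 0.40 to 0.85 for Cyp3a13 from E18 to P56 and -0.058 to 0.53 for the pair of Cyp3a11 and Cyp3a25, and the signs turned without P56 replicate 2 in the first, second and last of these.

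Counts over all genes moved by over 1.5 times in some alternatives. From E14 to E18 they ranged from 1526 to 5246 higher (4096 as reported) and 325 to 5221 lower (3817), from E18 to P5 from 38 to 1835 (1221) and 19 to 1626 (1066), from P5 to P56 from 108 to 4579 (3504) and 194 to 8855 (4118), from E18 to P56 from 1580 to 6920 (5224) and 2001 to 8972 (5600), and from E14 to P56 from 2453 to 7881 (6039) and 2358 to 8266 (5800). Leaving out P5 replicate 3 gave 595 higher and 347 lower from E18 to P5, and leaving out P5 replicate 2 gave 1841 and 1921.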
